A study of Mus musculus with 21 samples.

Results

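S100 proteins are small calcium-binding proteins, and this account follows 8 of their genes, S100a1, S100a4, S100a6, S100a8, S100a9, S100a10, S100a11 and S100a13, in cardiac macrophages and splenic monocytes of C57BL/6 mice. They were chosen by name as family members, with earlier results of these data known. All 8 were matched by symbol among the 27179 gene IDs of the count table. RNA was sequenced from 21 libraries of sorted cells in 7 groups of 3. Of these, 6 groups were macrophages from the hearts of naive mice or of mice challenged with CAWS, a water-soluble complex from Candida albicans used to model Kawasaki disease, and the remaining group was splenic monocytes, Ccr2-positive and taken from naive animals. Of the macrophages, R1 lacked Ccr2 with little MHC-II, R2 lacked Ccr2 with much MHC-II, and R3 carried both Ccr2 and much MHC-II, per the labels. Each replicate was an independent pool of mice, and every pool of hearts was divided into R1, R2 and R3. The labels used here give no CAWS dose, time after challenge, age or sex, and no monocytes of challenged mice were analysed here.

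An S100 protein usually works as a dimer that opens a binding surface when calcium rises and then docks on a target. S100a4 and S100a6 are linked to cell movement and growth, S100a10 and S100a11 are the partners of annexins at membranes, and S100a8 with S100a9 forms calprotectin, the abundant cytosolic complex of neutrophils and inflammatory monocytes. Once released, calprotectin is known as a danger signal read through Toll-like receptor 4 and the receptor Ager. S100a1 is best known from heart muscle, where it acts on calcium handling, and S100a13 from the export of growth factors that lack a signal peptide.

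The 8 genes lie on chromosome 3 within 3.05 Mb (RefSeq, GRCm38.p6). S100a1 (gene ID 20193, 90511034 to 90514330) and S100a13 (20196, 90514233 to 90524581) lie on opposite strands and overlap by 98 bases. S100a4 (20198, 90603770 to 90606045) is followed after 6848 bases by S100a6 (20200, 90612894 to 90614414). S100a8 (20201, 90669071 to 90670034) and S100a9 (20202, 90692630 to 90695721) come next, and S100a11 (20195, 93520496 to 93526288) and S100a10 (20194, 93555117 to 93564645) lie farther along. The strand setting of the counting is not given in the sources used here, so reads in the stretch shared by S100a1 and S100a13 cannot be assigned to one of them. S100a11 has a processed copy, S100a11-ps, that could share reads with it.

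Promoter sequence was found in the RefSeq table for 7 members, all but S100a10. The 250 bases before the annotated start are shown for the members whose RNA differed most between groups: S100a4 with its neighbour S100a6, which moved together, S100a11, which moved with CAWS in both Ccr2-negative populations, and S100a8 with S100a9, which were near 0 in macrophages. Each runs 5′ to 3′ on the gene's own strand (chr3:90603520-90603769 plus for S100a4, chr3:90612644-90612893 plus for S100a6, chr3:93520246-93520495 plus for S100a11, chr3:90668821-90669070 plus for S100a8 and chr3:90695722-90695971 minus for S100a9, GRCm38.p6), and capitals mark matches to 4 motifs searched on both strands.
S100a4: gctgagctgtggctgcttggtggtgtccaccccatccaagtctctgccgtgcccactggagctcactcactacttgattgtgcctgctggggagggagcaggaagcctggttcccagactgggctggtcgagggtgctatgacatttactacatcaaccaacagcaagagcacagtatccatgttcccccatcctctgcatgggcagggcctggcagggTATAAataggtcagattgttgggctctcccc
S100a6: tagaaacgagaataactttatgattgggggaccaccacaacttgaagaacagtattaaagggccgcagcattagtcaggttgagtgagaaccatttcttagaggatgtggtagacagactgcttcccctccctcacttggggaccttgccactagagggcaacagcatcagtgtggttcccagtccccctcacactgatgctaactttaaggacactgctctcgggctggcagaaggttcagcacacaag
S100a11: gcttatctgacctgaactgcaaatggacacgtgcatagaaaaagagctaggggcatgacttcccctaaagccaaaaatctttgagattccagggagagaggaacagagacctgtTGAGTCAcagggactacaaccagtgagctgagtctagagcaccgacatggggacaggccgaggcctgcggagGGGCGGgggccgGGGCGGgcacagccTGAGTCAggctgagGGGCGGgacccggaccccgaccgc
S100a8: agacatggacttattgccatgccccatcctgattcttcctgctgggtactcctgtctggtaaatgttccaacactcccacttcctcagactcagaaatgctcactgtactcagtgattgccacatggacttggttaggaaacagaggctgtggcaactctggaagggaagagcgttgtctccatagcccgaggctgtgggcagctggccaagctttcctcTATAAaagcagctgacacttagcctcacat
S100a9: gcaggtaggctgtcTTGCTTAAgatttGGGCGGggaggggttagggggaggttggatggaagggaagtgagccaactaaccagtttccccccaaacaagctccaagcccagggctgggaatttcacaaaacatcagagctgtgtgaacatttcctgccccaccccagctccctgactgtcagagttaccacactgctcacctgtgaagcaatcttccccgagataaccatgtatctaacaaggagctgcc
The motifs were TATAA, the core letters of a TATA box, found in 22.8% of 32851 RefSeq mouse windows of the same length, TGANTCA, the letters of an AP-1 site, in 6.75%, TTGCNNAA, the letters of a C/EBP site, in 9.56%, and GGGCGG, a GC box, in 32.7%. TATAA stood 31 to 27 bases before the start of S100a4 and 30 to 26 before that of S100a8. TGANTCA matched in S100a11 at 136 to 130 and at 38 to 32 bases before the start, together with 3 GC boxes. S100a9 held 1 match to TTGCNNAA, 236 to 229 bases before the start, and 1 GC box. None of these letters was found in the window of S100a6, and no matches overlapped. The motifs were chosen with the expression results known, and a match is a description of the letters only.

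Libraries held 12800136 to 23006155 counts, and 13275 genes were tested, among them all 8 members. CPM is the count of a gene at a common library size, and genes are compared with each other only as RPKM, which also divides by gene length. The labels were checked against RNA: Ccr2 stood at 5.40 to 38.7 CPM in naive R1 and R2 and at 2041 CPM or more in every R3 and monocyte library. H2-Ab1, an MHC-II chain, stood at 449 to 1617 CPM in R1 libraries and at 7147 CPM or more in R2 and R3 libraries. All 10 resident cardiac macrophage markers were higher in naive R1 than in monocytes, and 9 were in naive R3. After CAWS, Ccr2 RNA was also seen in the Ccr2-negative groups, at 40.6 to 122 CPM in R1 and 206 to 267 CPM in R2. A library that stood apart was naive R3 replicate 2, whose 14 stromal and endothelial markers summed to 243 CPM against 33.9 and 33.7 CPM in the other naive R3 libraries. Monocyte replicate 2 held the highest S100a4, S100a6, S100a10, S100a11 and S100a13 of the series. Because bulk RNA was measured, fewer cells of a type and less RNA per cell cannot be told apart.

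Per length, S100a4 was the most abundant member wherever Ccr2 RNA was high, and S100a10 was ahead of it in both naive Ccr2-negative populations. In monocytes the RPKM of S100a4 was 3235 ± 1995 (SD, n = 3), followed by S100a6 at 1268 ± 554, S100a10 at 577 ± 226 and S100a11 at 157 ± 12.4, with no overlap of neighbours over the libraries. S100a13, S100a9, S100a1 and S100a8 followed at mean RPKM of 76.5, 39.0, 34.9 and 32.0, and the ranges of neighbours among these met. In naive R2, by contrast, RPKM was 89.6 for S100a10, 40.9 for S100a4, 34.95 for S100a1, 32.2 for S100a13, 21.2 for S100a6 and 19.2 for S100a11. There the ranges of S100a4, S100a1 and S100a13 met in that order, as did those of S100a6 and S100a11. In naive R3 the RPKM of S100a4 was 353, that of S100a10 was 227 and that of S100a6 was 201, the last of which met S100a10 in range. In CAWS R3 S100a4 had 591 RPKM, S100a6 had 373 and S100a10 had 313, so the means of S100a6 and S100a10 stood in the opposite order, again with ranges that met. In naive R1 S100a10 led with 180 RPKM, ahead of S100a4 at 140 and S100a6 at 80.1 without overlap. In CAWS R1 and CAWS R2 the ranges of S100a10 (200 and 160 RPKM) and S100a4 (169 and 167 RPKM) met.

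**Figure D1:**
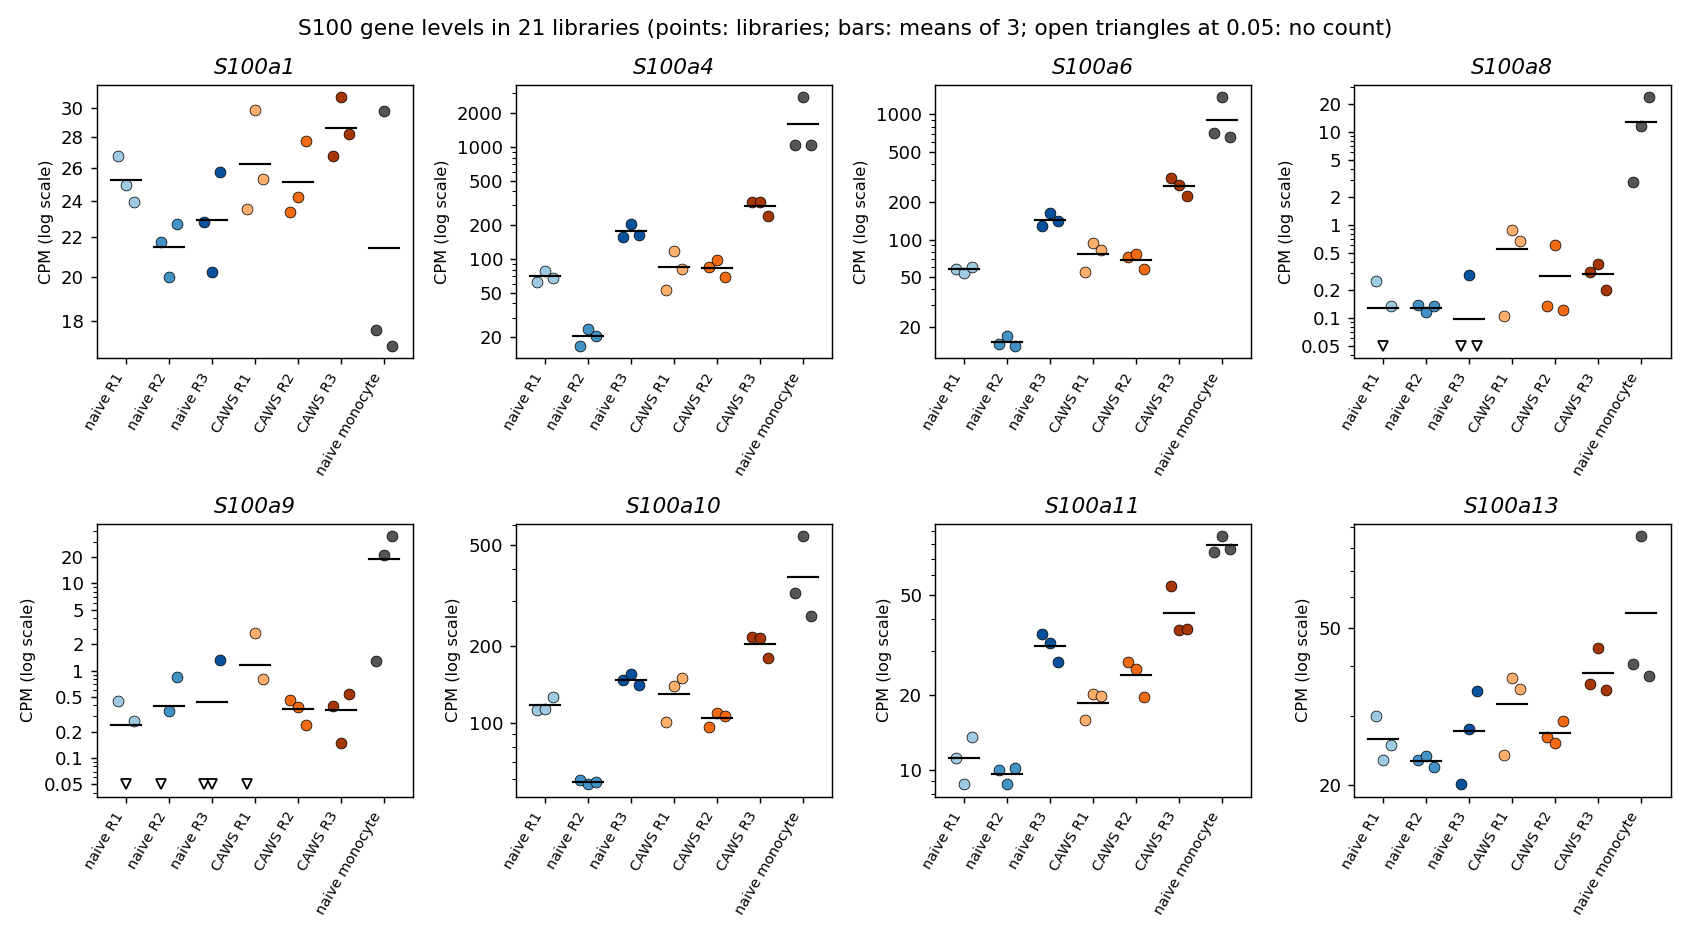
CPM of each of the 8 genes (log axis, own scale per panel) in the 21 libraries by group, with a bar at the mean of 3 and open triangles at 0.05 for libraries with no count. S100a4, S100a6 and S100a10 share a profile with a low point in naive R2 and a high point in monocytes, S100a1 spans 16.98 to 30.8 CPM in all, and S100a8 and S100a9 are near 0 outside the monocytes.

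S100a4, which binds non-muscle myosin and is known from motile cells, and S100a6, its neighbour on the chromosome, ran in parallel. In naive hearts both were lowest in R2, intermediate in R1 and highest in R3. S100a4 stood in naive R1 at 62.9, 78.5 and 68.0 CPM, in naive R2 at 16.9, 23.7 and 20.7 CPM and in naive R3 at 158, 206 and 165 CPM. S100a6 stood in naive R1 at 58.1, 54.3 and 60.4 CPM, in naive R2 at 14.6, 16.9 and 14.2 CPM and in naive R3 at 128, 163 and 141 CPM. For both genes the 3 naive populations did not overlap. From naive R1 to naive R2 the log2 fold change of S100a4 was -1.78 ± 0.36 (SE; adjusted p = 0.00453) and that of S100a6 was -1.92 ± 0.26 (adjusted p = 6.17e-05; edgeR's quasi-likelihood test, adjusted over all genes tested, as for all such p below). From naive R2 to naive R3 they were 3.12 ± 0.37 (adjusted p = 2.02e-05) and 3.25 ± 0.26 (adjusted p = 8.01e-08), and from naive R1 to naive R3 1.34 and 1.32 (adjusted p = 0.00750 and 0.000319). With S100a10, 3 of the 8 members were lower in naive R2 than in naive R1, where 3.25% of all genes tested were. In naive R3, 4 members were higher than in naive R2 (6.63% of genes tested) and 3 were higher than in naive R1 (12.5%).

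After CAWS, S100a4 and S100a6 rose in R2, and CAWS R2 and CAWS R1 then overlapped. S100a4 stood at 83.9, 98.4 and 68.4 CPM in CAWS R2 and S100a6 at 72.3, 76.6 and 58.6 CPM, every library above every naive R2 library. The log2 fold changes from naive R2 were 2.04 ± 0.36 for S100a4 (4.11-fold; adjusted p = 0.00136) and 2.19 ± 0.26 for S100a6 (4.56-fold; adjusted p = 1.46e-05). In this comparison 4 of the 8 members were higher and 0 were lower, against 6.79% and 3.5% of all genes tested. The members' median log2 fold change was 1.003 against 0.02 over all genes tested. In R1 the members' median was 0.35 against 0.03, and in R3 it was 0.48 against -0.06.

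In R1 neither gene passed the test after CAWS. S100a4 stood at 53.0, 118 and 81.8 CPM and S100a6 at 55.3, 93.7 and 81.9 CPM in CAWS R1, overlapping the naive R1 libraries. The log2 fold changes were 0.27 ± 0.34 (adjusted p = 0.702) and 0.42 ± 0.23 (adjusted p = 0.308). CAWS R1 replicate 2, the library with most S100a4 and S100a6 in its group, also had the most Ccr2 (122 CPM against 79.4 and 40.6 CPM), and without it the value for S100a4 was -0.05. Between CAWS R2 and CAWS R1 the difference was -0.01 log2 for S100a4 (95% interval -0.71 to 0.70) and -0.15 for S100a6 (-0.64 to 0.34). Of the 8 members, 0 differed between these 2 groups by edgeR, where 3.77% of all genes tested did. By DESeq2 0 members differed, where 599 of all genes tested did. At an unadjusted p under 0.05 there was 1 member, S100a11, and the share of all genes at that threshold is not given here.

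In R3, the Ccr2-positive macrophages, S100a6 was the single member that passed the test after CAWS, where 15% of all genes tested differed and 6.7% were higher. It stood at 311, 272 and 221 CPM in CAWS R3, above the naive R3 libraries, with a log2 fold change of 0.89 ± 0.23 (adjusted p = 0.0119). That call was lost without naive R3 replicate 1 (adjusted p = 0.0530) or CAWS R3 replicate 1 (adjusted p = 0.0622). S100a4 stood at 322, 320.2 and 244 CPM in CAWS R3, also above every naive R3 library, and its log2 fold change of 0.74 ± 0.33 had an adjusted p of 0.139. With naive R3 replicate 2, the library rich in stromal transcripts, and monocyte replicate 2 both left out, S100a4 had 0.92 and passed (adjusted p = 0.0206). In challenged hearts R3 was above both other populations. The log2 difference from CAWS R1 was 1.81 for S100a4 and 1.80 for S100a6 (adjusted p = 0.000574 and 8.18e-06), and from CAWS R2 it was 1.82 and 1.95 (adjusted p = 0.00116 and 7.38e-06). In each of these comparisons 4 members were higher in CAWS R3, where 13.1% and 5.51% of all genes tested were higher.

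Monocytes held more S100a4 and S100a6 than any macrophage library. S100a4 stood at 1044, 2764 and 1036 CPM and S100a6 at 708, 1371 and 655 CPM in monocyte replicates 1, 2 and 3. S100a4 differed from monocytes by -6.31 log2 in naive R2, -4.53 in naive R1, -3.20 in naive R3 and -2.45 in CAWS R3, and S100a6 by -5.91, -3.98, -2.66 and -1.77 (adjusted p from 7.01e-13 to 1.29e-05). Without monocyte replicate 2 the S100a4 values were -5.68, -3.90, -2.56 and -1.82, and each remained past the test. Genes lower than in monocytes made up 30.5% of those tested for naive R2, 30.8% for naive R1, 27.1% for naive R3 and 22.8% for CAWS R3.

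Transcripts that mark cell types were summed in the same libraries. The classical monocyte list holds 12 genes, among them F13a1, which resident macrophages also express. All 12 summed to 5661 to 7112 CPM in naive R1, 2338 to 3050 in naive R2 and 4357 to 5513 in naive R3. After CAWS they summed to 4048 to 5125 CPM in R1, 2645 to 2718 in R2 and 5168 to 5644 in R3. Leaving out F13a1 changed the order of R1 and R3 in naive hearts and left 11 genes. Summed, these reached 92.2 to 152 CPM (naive R1), 41.7 to 72.0 CPM (naive R2) and 2978 to 3603 CPM (naive R3), and 238 to 512, 448 to 559 and 4380 to 4868 in the CAWS groups R1, R2 and R3. In monocytes the 11 genes summed to 17630 to 18750 CPM. Ccr2, by which R3 was defined, averaged 2390 CPM in naive R3, where Ly6c2 averaged 2.94 CPM. None of the 12 listed monocyte markers was at 0 in any group. After CAWS, 4 of 12 were higher in R1, 8 in R2 and 2 in R3, with 1 lower in R3. The 12 conventional dendritic cell markers summed to 102 to 108 CPM in naive R1 and to 108 to 117 CPM in naive R2, with Ccr7 at 0 in naive R1. After CAWS they summed to 116 to 249 CPM in R1 and to 313 to 791 CPM in R2, with 6 and 8 of them higher. In R3 they summed to 575 to 1025 CPM in naive and 624 to 938 CPM in CAWS libraries, with 0 higher and 0 lower. The 10 resident macrophage markers summed to 5452 to 9471 CPM in naive R3 and to 3223 to 3299 CPM in CAWS R3, where all 10 were lower, and 1 was lower in R2 and 3 in R1. The part of these transcripts in the S100 levels was not tested.

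**Figure D2:**
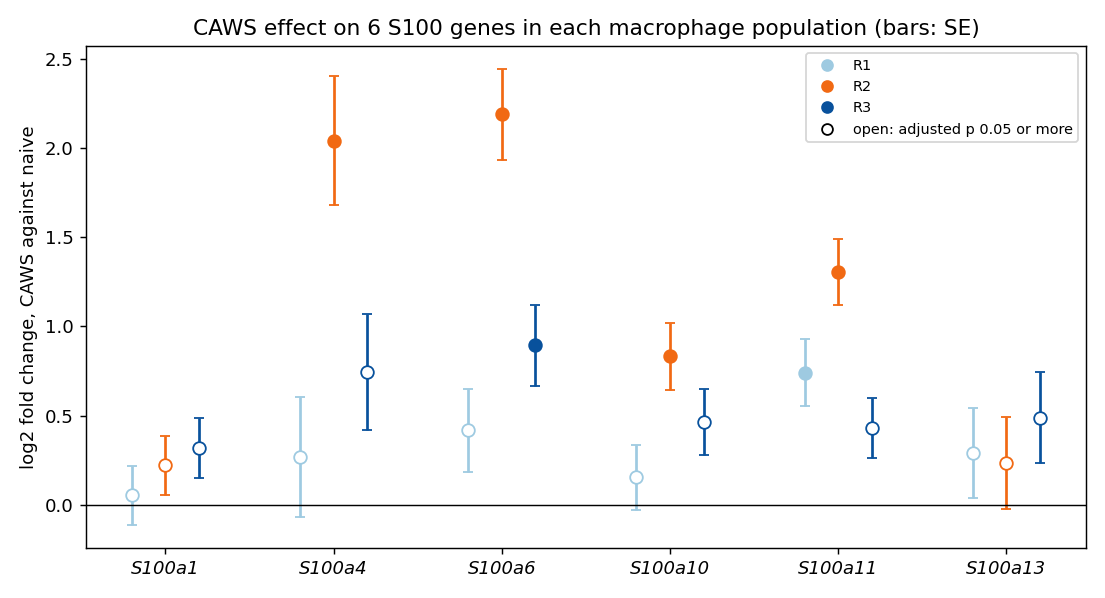
Log2 fold change from naive to CAWS in R1, R2 and R3 for the 6 members over the low-count filter's threshold in every library. Points have bars of 1 SE and are filled where the adjusted p was under 0.05. Filled points are S100a4, S100a6, S100a10 and S100a11 in R2 (0.83 to 2.19), S100a11 in R1 (0.74) and S100a6 in R3 (0.89). The points drawn lie above 0, whereas S100a9, not drawn, had -0.16 in R2 and -0.14 in R3. The share of all genes above 0 is not given here.

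S100a10, which pairs with annexin A2 and as that complex binds plasminogen at the cell surface, was lowest in naive R2 as well. In naive R1 it stood at 112, 113 and 126 CPM, in R2 at 59.3, 57.2 and 58.2 CPM and in R3 at 148, 155 and 140.2 CPM. The naive R2 libraries lay below all others, with a log2 fold change of -1.005 ± 0.19 from naive R1 (adjusted p = 0.00134) and one of 1.34 ± 0.19 from naive R2 to naive R3 (adjusted p = 4.26e-05). Naive R3 did not pass against naive R1 (adjusted p = 0.204), although its libraries lay above. After CAWS it stood at 100.2, 140 and 150.1 CPM in R1, at 96.2, 109 and 106 CPM in R2 and at 217, 215 and 179 CPM in R3. The rise in R2 passed the test, at 0.83 ± 0.19 (1.78-fold; adjusted p = 0.00638). The values of 0.15 ± 0.18 in R1 (adjusted p = 0.687) and 0.46 ± 0.18 in R3 (adjusted p = 0.0934) did not, although the R3 libraries of naive and challenged hearts did not overlap. CAWS R3 was above CAWS R2 by 0.97 (adjusted p = 0.000809) and above CAWS R1 by 0.65 (adjusted p = 0.0105), the latter lost without CAWS R1 replicate 1 (adjusted p = 0.0709). Monocytes held 322, 541 and 263 CPM, above every macrophage group, and the log2 difference ran from -2.69 in naive R2 to -0.88 in CAWS R3.

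S100a11, a partner of annexin A1, was the one member that passed the test for CAWS in both R1 and R2. It stood at 11.1, 8.75 and 13.5 CPM in naive R1 and at 15.8, 20.03 and 19.8 CPM in CAWS R1. In R2 it stood at 9.98, 8.81 and 10.2 CPM in naive and at 27.1, 25.3 and 19.6 CPM in CAWS libraries. Neither population overlapped between naive and CAWS. The log2 fold change was 0.74 ± 0.19 in R1 (1.67-fold; adjusted p = 0.0158) and 1.31 ± 0.19 in R2 (2.47-fold; adjusted p = 5.90e-05). The R1 call, the single one among 8 members where 8.94% of all genes tested differed and 6.07% were higher, was lost without naive R1 replicate 1 (adjusted p = 0.0580), naive R1 replicate 2 (0.0879), CAWS R1 replicate 2 (0.0639) or CAWS R1 replicate 3 (0.0593). The R2 call was kept without each library in turn.

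Between naive R1 and naive R2, S100a11 did not pass the test. The log2 difference was -0.20 with a 95% interval of -0.61 to 0.22, and the libraries overlapped. Ccr2-positive macrophages held more of it, at 35.03, 32.2 and 26.9 CPM in naive R3 and 54.4, 36.3 and 36.8 CPM in CAWS R3. The naive R3 level was above naive R1 by 1.502 (adjusted p = 2.28e-06) and above naive R2 by 1.70 (adjusted p = 1.28e-06). CAWS R3 was above CAWS R1 by 1.19 (adjusted p = 1.37e-05) and above CAWS R2 by 0.82 (adjusted p = 0.00154). Within R3 the change with CAWS was 0.43 ± 0.17 and did not pass the test (adjusted p = 0.0854). Monocytes held 74.5, 86.2 and 76.6 CPM, and differences from them ran from -3.03 log2 in naive R2 to -0.90 in CAWS R3.

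Whether the CAWS effect itself differed between populations was tested as an interaction, and 0 of the 8 members passed for any pair of populations with edgeR, where 0.0527% of all genes tested passed for R2 against R1, 2.26% for R3 against R1 and 2.33% for R3 against R2. At an unadjusted p under 0.05 there were 4 members for R2 against R1, 0 for R3 against R1 and 3 for R3 against R2, and DESeq2 called 1, 0 and 2. The effect on S100a6 was 1.77 ± 0.35 log2 larger in R2 than in R1 (95% interval 1.05 to 2.50; adjusted p = 0.0672) and 1.29 smaller in R3 than in R2 (-1.29 ± 0.34; adjusted p = 0.0503). DESeq2 gave adjusted p of 0.000242 and 0.00828 for these, and edgeR gave 0.0438 for the former without CAWS R1 replicate 2 and 0.0479 for the latter without CAWS R2 replicate 3. For S100a4 the differences were 1.77 ± 0.49 (adjusted p = 0.358) and -1.30 ± 0.48 (adjusted p = 0.242). In an edgeR fit of only the groups compared, the second of these was -1.24 and passed (adjusted p = 0.00951). Both S100a6 differences passed in that fit too (adjusted p = 0.00153 and 0.00206). For S100a11 the differences were 0.57 ± 0.26 (adjusted p = 0.933) and -0.87 ± 0.25 (adjusted p = 0.0691). The last passed with DESeq2 (0.0477) and, with edgeR, without CAWS R2 replicate 3 (0.0409) or CAWS R3 replicate 1 (0.0128). For S100a10 they were 0.68 ± 0.26 (adjusted p = 0.730) and -0.37 ± 0.26 (adjusted p = 0.688). For these 4 genes the estimated effect was larger in R2 than in R1, and none of the 4 differences passed the adjusted edgeR test in the fit of all 21 libraries. The comparisons of R2 with R1 and of R3 with R2 share the R2 libraries.

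Receptors, partners and regulators of S100 proteins were counted from a list of 31 genes, 28 of which could be tested. In R1 3 were higher and 1 lower after CAWS (6.07% and 2.87% of all genes tested), in R2 4 were higher and 2 lower (6.79% and 3.5%), and in R3 2 were higher and 4 lower (6.7% and 8.29%). The list's median log2 fold change was -0.05, 0.05 and -0.19 in R1, R2 and R3, against 0.03, 0.02 and -0.06 over all genes tested. Anxa2 and Anxa1, the partners of S100a10 and S100a11, were higher after CAWS in all 3 populations. The log2 fold change of Anxa2 was 0.60 in R1, 1.53 in R2 and 0.54 in R3, and that of Anxa1 was 0.75, 1.93 and 0.71 (adjusted p from 6.78e-10 to 0.00288). For both, the rise in R2 exceeded that in R1, by 0.93 for Anxa2 (adjusted p = 0.0260) and by 1.19 for Anxa1 (adjusted p = 0.00579). Anxa6 passed the test in R2 only among the 3 populations (0.54, adjusted p = 0.000191), with 0.23 in R1 and 0.21 in R3, and its interactions did not pass (adjusted p = 0.726 for R2 against R1). Anxa11, which can bind S100a6, passed in none of the 3. Plaur, the urokinase receptor, was higher in R1 (0.86, adjusted p = 0.0424) and R2 (1.43, adjusted p = 0.00137), with 0.67 in R3 (adjusted p = 0.0744).

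Of the receptors, Tlr4 fell in each population, by 0.55 on the log2 scale in R1, by 0.63 in R2 and by 0.53 in R3 (adjusted p = 0.0121, 0.00371 and 0.0122). Cd36, a scavenger receptor reported to bind calprotectin, fell by 1.83 in R3 (adjusted p = 2.57e-09) and had -0.21 in R1 and -0.31 in R2 (adjusted p = 0.311 and 0.110). Ager was at 0.314 CPM or less on average in every group and was not tested. Cebpa, a myeloid transcription factor, fell by 0.32 in R2 and by 0.40 in R3 (adjusted p = 0.0344 and 0.00726), and Ppfibp1, the liprin that S100a4 binds, fell by 0.50 in R3 (adjusted p = 0.0144).

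Over the 21 libraries, S100a4 and S100a6 had a Pearson r of 0.992 between their log2 CPM, and the same value over the 18 macrophage libraries alone. S100a10 had 0.976 with S100a4 and 0.981 with S100a6, and 0.958 and 0.972 in macrophages. The correlation of S100a11 with S100a4 was 0.933, and 0.880 in macrophages. Among 7881 expressed genes that are not members, Anxa2 was the most like S100a4 (r = 0.980), S100a6 (0.980) and S100a10 (0.957). Anxa1 was the next for S100a6 (0.966) and S100a10 (0.949), and Hpse, which encodes heparanase, was the next for S100a4 (0.965). For S100a11 the most similar genes were Mthfd2 (0.973), a mitochondrial folate enzyme, Itgb7 (0.970) and Napsa (0.966), the last 2 of which also stand in the dendritic cell list. S100a8 and S100a9 had an r of 0.841 with each other over all libraries and 0.437 over the macrophages, where their counts were near 0. The genes most like them were Fam32a for S100a8 (0.927) and Cyp39a1 for S100a9 (0.836). These are descriptions over libraries that share pools and groups.

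**Figure D3:**
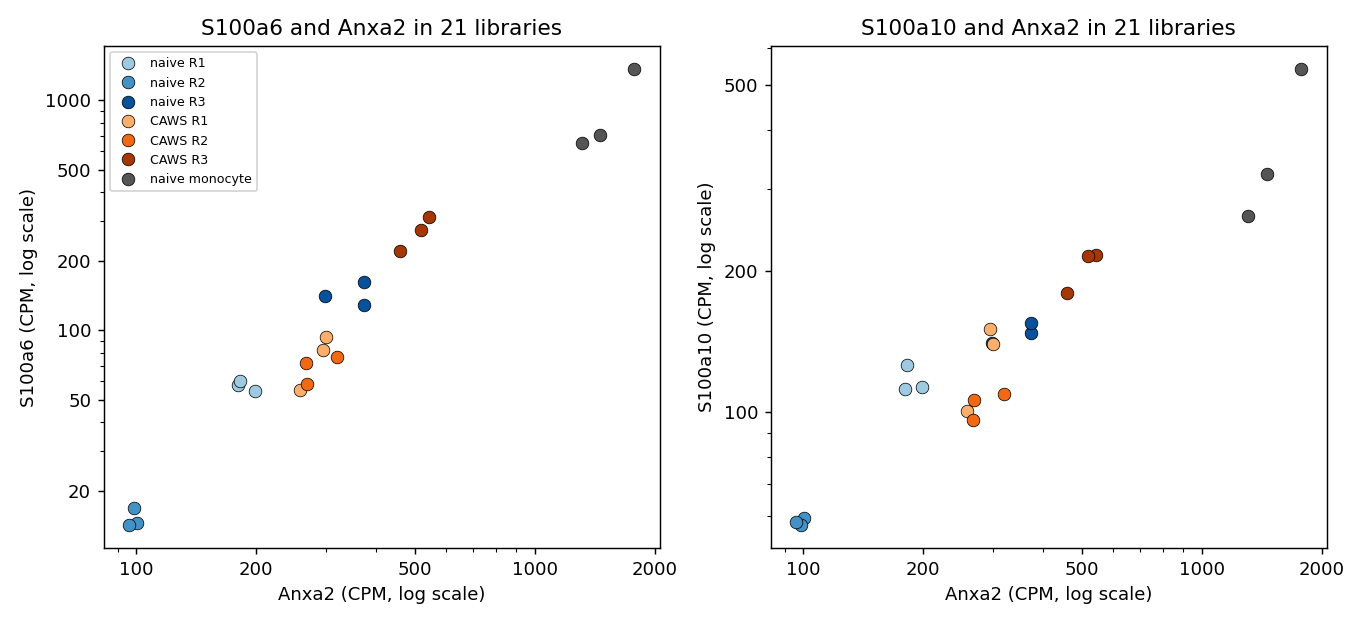
CPM of S100a6 (left) and S100a10 (right) against CPM of Anxa2 in the 21 libraries, both axes logarithmic, colour by group. Naive R2 lies at the low end, with Anxa2 at 96.1 to 101 CPM, and the monocytes at the high end, with Anxa2 at 1310 to 1777 CPM, while the CAWS R2 libraries lie next to CAWS R1.

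S100a8 and S100a9, the calprotectin subunits, were near 0 in the heart macrophages. S100a8 had 5, 0 and 2 counts in the naive R1 libraries, 3, 2 and 3 in R2 and 0, 5 and 0 in R3. After CAWS it had 2, 15 and 13 counts in R1, 2, 11 and 2 in R2 and 4, 5 and 3 in R3. Each macrophage library was therefore below 1 CPM for S100a8. S100a9 had 9, 0 and 4 counts in the naive R1 libraries, 0, 6 and 19 in R2 and 0, 0 and 20 in R3, and 0, 46 and 16 in CAWS R1, 7, 7 and 4 in CAWS R2 and 5, 2 and 8 in CAWS R3. The highest macrophage library for both was CAWS R1 replicate 2, with 0.871 CPM of S100a8 and 2.67 CPM of S100a9. Neither passed the test for CAWS in any population. The 95% intervals of the log2 change were -0.94 to 4.79 in R1, -2.05 to 4.39 in R2 and -2.31 to 5.27 in R3 for S100a8, and -1.72 to 5.93, -4.51 to 4.20 and -4.94 to 4.66 for S100a9. A rise of the size seen for S100a6 in R2 lay within all 6 of them, so the counts neither showed nor excluded one of that size.

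The monocytes held more of both, and their 3 libraries disagreed. S100a8 had 45, 167 and 416 counts in monocyte replicates 1, 2 and 3, or 2.89, 11.4 and 23.3 CPM. S100a9 had 20, 311 and 618 counts, or 1.29, 21.2 and 34.6 CPM. S100a8 in the lowest monocyte library exceeded that in every macrophage library, whereas S100a9 in the lowest monocyte library was below the 2.67 CPM of CAWS R1 replicate 2 and level with naive R3 replicate 3 at 1.32 CPM. S100a8 passed the filter on low counts only through the monocytes, so a difference from the macrophages was built into its selection. It had 2 macrophage libraries over the threshold of the filter, where 3 were needed, and S100a9 had 4. The log2 difference from monocytes for naive R1, R2, R3 and CAWS R3 in turn was -6.47, -6.56, -6.89 and -5.42 for S100a8 and -6.21, -5.57, -5.56 and -5.70 for S100a9. Each remained past the test under every alternative, which for S100a8 is no support for a difference, given its selection. The sizes rested on single libraries. Without monocyte replicate 3 they became -5.62, -5.71, -6.04 and -4.56 for S100a8 and -5.41, -4.77, -4.76 and -4.90 for S100a9. All S100a8 counts of naive R3 were in replicate 2 and all its S100a9 counts in replicate 3, and without those libraries the fitted values were -10.8 and -11.4, sizes that depend on the prior count of the fit and are no bound. S100a9 in naive R3 was -4.95 without replicate 1 and -4.94 without replicate 2. Without naive R1 replicate 1 the values for naive R1 were -7.48 for S100a8 and -7.15 for S100a9, and S100a9 in naive R2 was -6.92 without replicate 3 and -4.95 without replicate 1.

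Some neutrophil markers had the same order as S100a8 and S100a9 across the monocyte libraries and others did not. Of the 18 listed, 8 were lowest in replicate 1 and highest in replicate 3 (Camp, Ltf, Ngp, Lcn2, Mmp9, Elane, Prtn3 and Wfdc21), 2 ran the opposite way (Cd177 and Il1r2) and 8 had another order. The granule genes Camp, Ngp, Ltf and Lcn2, named after their values were seen, together summed to 3.22 CPM in replicate 1, 17.7 CPM in replicate 2 and 72.3 CPM in replicate 3. Ngp alone, a granule protein gene, stood at 1.03, 4.98 and 29.8 CPM. Ly6g, the marker most used to sort neutrophils, was at 0.129, 0.273 and 0.0561 CPM, lowest in replicate 3. The most abundant markers did not follow S100a8 either. Cd177 stood at 913, 799 and 663 CPM in replicates 1, 2 and 3, Csf3r stood at 408, 309.8 and 429.8 CPM, and Mmp8, a granule collagenase, at 230.2, 255 and 228 CPM. The whole list summed to 1477 to 1743 CPM in monocytes, and none was at 0 in all 3 libraries. In the macrophage groups it summed to between 126 and 463 CPM per library, most of it from Mmp9 and Csf3r. Over the 18 macrophage libraries Mmp9 had 51354 counts, against 106 in the monocytes, and Csf3r had 20680, against 18549. Every other listed marker had 1062 counts (Il1r2) or fewer over those macrophage libraries. Ly6g and Camp had 0 counts in all 18 macrophage libraries, which allows a level of up to 0.00965 CPM over them. The part of neutrophil transcripts in the monocyte values was not tested.

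**Figure D4:**
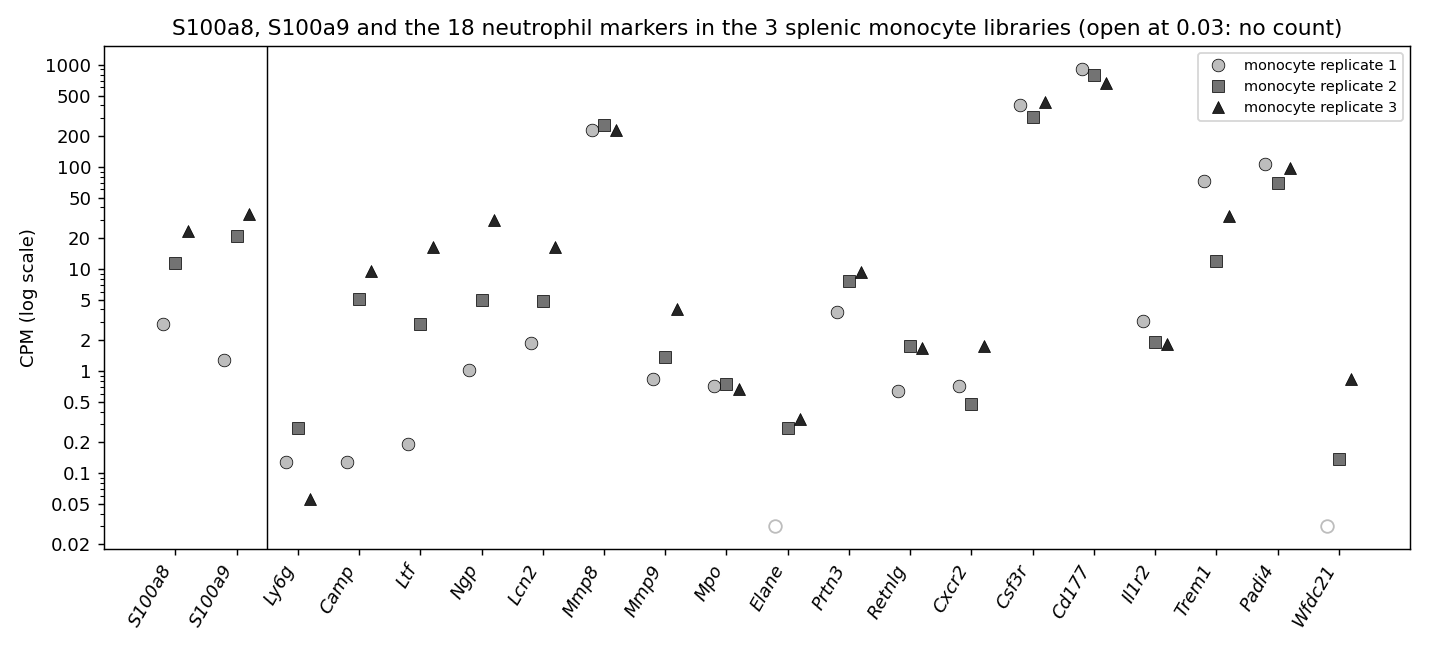
CPM (log axis) of S100a8, S100a9 and all 18 neutrophil markers in the 3 monocyte libraries, 1 symbol per library, open where a library held no count. S100a8 (2.89 to 23.3 CPM) and S100a9 (1.29 to 34.6 CPM) are lowest in replicate 1 and highest in replicate 3, as are 8 of the markers, whereas Cd177 and Il1r2 run the opposite way and the other 8 follow neither order.

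Neither S100a1 nor S100a13 passed the test in any comparison among the macrophages with all libraries. S100a1 ranged from 20.02 to 26.7 CPM in the 9 naive macrophage libraries, from 23.4 to 30.8 CPM in the 9 CAWS libraries and from 16.98 to 29.8 CPM in the monocytes. With CAWS its log2 fold change was 0.05 ± 0.16 in R1, 0.22 ± 0.17 in R2 and 0.32 ± 0.17 in R3 (adjusted p = 0.899, 0.453 and 0.216). The 95% intervals were -0.29 to 0.39, -0.12 to 0.57 and -0.03 to 0.67, so changes of the size seen for S100a6 in R2 lie outside them. S100a1 in CAWS R3 was 0.42 ± 0.17 above monocytes (adjusted p = 0.0467) with overlapping libraries, where 24.8% of all genes tested were higher. That call was lost with DESeq2 (0.0554), with RLE scaling (0.0567), with no filter on low counts (0.0574), in a fit of only the groups compared (0.196) and without any one of the 3 CAWS R3 libraries (0.0567, 0.139 and 0.0816) or monocyte replicates 1 or 3 (0.196 and 0.221). Without monocyte replicate 2 the difference was 0.72 (adjusted p = 0.000214).

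Heart muscle transcripts were present in the cardiac libraries. The 16 cardiomyocyte markers summed to 63.8 to 91.1 CPM (naive R1), 148 to 194 CPM (naive R2) and 156 to 191 CPM (naive R3), and to 116 to 135, 138 to 207 and 85.2 to 128 CPM in CAWS R1, R2 and R3. Of them 1, Nppb, was at 0 in CAWS R1. In monocytes they summed to 0.410 to 1.09 CPM with 8 of 16 at 0, among them Myh6, Tnnt2 and Ryr2, and S100a1 stood at 16.98 to 29.8 CPM there. The part of heart muscle transcripts in the S100a1 levels of the cardiac libraries was not tested.

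S100a13 ranged from 20.1 to 34.6 CPM in naive and from 23.8 to 44.6 CPM in CAWS macrophages, and stood at 40.6, 85.6 and 37.9 CPM in monocytes. Its log2 fold change with CAWS was 0.29 ± 0.25 in R1, 0.23 ± 0.26 in R2 and 0.49 ± 0.25 in R3 (adjusted p = 0.547, 0.639 and 0.209). In R2 and R3 every CAWS library of S100a13 lay above every naive one, whereas those of R1 overlapped. Every CAWS R3 library also lay above CAWS R2 (log2 difference 0.51, adjusted p = 0.202). S100a13 was also compared with monocytes. It was lower than in monocytes in the 3 naive populations (log2 difference -1.06 for R1, -1.24 for R2 and -0.99 for R3; adjusted p = 0.00102, 0.000209 and 0.00204). Without monocyte replicate 2 these values were -0.58, -0.77 and -0.52 and remained past the test. CAWS R3 differed from monocytes by -0.50 with overlapping libraries (adjusted p = 0.101). The genes most like S100a13 were Tmem256 (r = 0.969), Ubl5 (0.941) and Cox6b1 (0.937), and those most like S100a1 reached r of no more than 0.846 (Fundc2). The overlap of the S100a1 and S100a13 genes leaves part of both levels uncertain.

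The table holds 18 S100 genes in all, and 10 lie outside the 8 described. Of these, S100a16 alone had enough counts to be tested, at 0.999 CPM or less on average in every group and at 0.0683 CPM in monocytes. The other 9, S100a2, S100a3, S100a5, S100a7a, S100a7l2, S100a14, S100b, S100g and S100z, had 26 counts or fewer over the 21 libraries together, and S100a2 and S100a7l2 had 0.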

How the data were processed

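Per gene, the authors deposited a raw count of reads, made with featureCounts on mm10 per the submitters' processing notes, and a length in bases per the file headers. For the aligner, annotation, strand setting and featureCounts version, the entry is: not given in the sources used here. Per the labels' protocols, sorted cells went into TruSeq RNA libraries. The deposited count was used as given: per-sample and combined tables were identical for 21 of 21 libraries. Symbols and positions came from RefSeq (GRCm38.p6), which matched 25275 of 27179 gene IDs by number.

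Genes passing edgeR's filterByExpr (minimum count 10, minimum total 15) were tested, 13275 in all, with edgeR 4.0.16 in R 4.3.3. The quasi-likelihood test was two-sided, with TMM scaling (factors 0.9093 to 1.065), 1 mean per group, a spread estimated from all 21 libraries (residual degrees of freedom: 14), and p adjusted by Benjamini-Hochberg over all tested genes at 0.05. All 16 comparisons were fitted on the whole table, and the fit was tested on simulated data for 1 of them, CAWS R2 against naive R2. There 60% of 100 genes changed 2-fold and 88% of 100 genes changed 4-fold were called in the right direction. Of its calls, 5.13% fell on unchanged genes. A change of 2-fold or less can therefore be missed. Each standard error is the log2 fold change over the root of its F statistic. CPM uses TMM-adjusted totals of the tested genes, and RPKM divides it by the deposited length. A floor of 3 counts covers counting error only, whereas replicates differed by 11.5 to 95.8 times the counting variance.

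The members and lists were chosen with earlier results of these data known. The 8 members are named everywhere, along with listed partners past the test or paired with a member, and the 3 genes with the highest Pearson r of log2 CPM (prior count 2) among genes whose highest group averages log2 CPM 4 or more. Replicate numbers were read as pools within a treatment: per the series design each pool of hearts gave 3 populations, and over 7064 genes averaging log2 CPM 4 or more, the 18 correlations of same-numbered deviations were 0.151 to 0.638. Across treatments and with monocytes they ran from -0.296 to 0.703, and 0 of 15 pairs of groups had all over 0.1. Alternatives were DESeq2 1.42.0, RLE scaling, no filter, a stricter filter, only the groups compared, a replicate block, and libraries left out.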

Additional observations from a re-analysis of the deposited data

How the results depend on the processing

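All 4 member calls in R2 after CAWS and every call between naive populations held under DESeq2, RLE scaling, no filter, a stricter filter, the fit of only the groups compared, the replicate block and each library left out. Precision is limited by 3 libraries per group and, for S100a8 and S100a9 in macrophages, by counts near 0. In R3 after CAWS, 1 member passed the test with all libraries. The number was 3 in a fit of only the groups compared (S100a4 and S100a10 added) and 2 with the replicate block (S100a4 added). Across treatments that block matched libraries by replicate number only, although naive and CAWS pools held different mice. The number was 4 (S100a4, S100a10 and S100a13 added) without both naive R3 replicate 2 and monocyte replicate 2, an alternative chosen after seeing the data. It was 0 to 1 with libraries left out in turn, as in R1. For the difference of the CAWS effect, 0 members became 1 with DESeq2, 1 with only the groups compared and 0 to 1 with libraries left out for R2 against R1. For R3 against R2, 0 became 2, 2 and 0 to 2, and 1 without both named libraries. The pool as a block changed no call within a treatment or between effects. The values that turned direction were small and not called: S100a4 from CAWS R1 to CAWS R2 was 0.0139 with the replicate block, 0.31 without CAWS R1 replicate 2 and 0.12 without CAWS R2 replicate 3, S100a6 there was 0.0116 without CAWS R1 replicate 2, and without that library S100a1 and S100a4 in R1 after CAWS were -0.0481 and -0.0489. With libraries left out in turn, S100a4 ran from -0.0489 to 0.51 in R1 after CAWS and from -0.25 to 0.31 between the CAWS groups, where S100a6 ran from -0.34 to 0.0116. The cause was not tested.

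Over all genes tested, a fit of only the groups compared moved the number past the test from 1365 to 2809 in R2 after CAWS, and for R2 against R1 from 946 to 1524 in naive and from 501 to 782 in CAWS hearts. For the difference of the CAWS effect between R2 and R1, 7 genes became 14 with no filter, 57 with DESeq2, 33 with only the groups compared and 15 with the replicate block, and between R3 and R1 300 became 479 with DESeq2. Without single libraries the lowest counts after CAWS were 681 in R1, against 1187 with all libraries, 732 in R2 and 988 in R3, against 1991.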
